A study of Mus musculus with 18 samples.

Results

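Total mRNA was compared between RAW264.7 cells given LPS together with torin1 and cells given LPS alone, and the question was which transcript programs differ when the mTOR kinase is blocked during the response to LPS. RAW264.7 is a mouse macrophage cell line. The LPS cells received 500 ng/mL LPS for 6 h. The torin1 cells were given 100 nM torin1 first, 15 min ahead of the same LPS treatment, and a control group carried vehicle and no LPS. Each treatment was run in 3 independent experiments, so that 6 of the 18 libraries of the series entered the comparison, 3 with LPS and 3 with LPS and torin1, chosen by the RNA type and treatment in the sample records and paired by experiment number. None of the groups analysed here held torin1 without LPS, so an effect of torin1 in resting cells cannot be told apart from its effect during LPS. All groups were the same cell line, without a genetic change of mTOR.

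mTOR is a kinase that sits in complexes known as mTORC1 and mTORC2, and torin1 blocks its catalytic site and so acts on both. When nutrients and growth factors are present, mTORC1 promotes translation, ribosome production and the synthesis of lipids and nucleotides, and it keeps the lysosomal transcription factors TFEB and TFE3 phosphorylated and out of the nucleus, while mTORC2 acts on AKT, which restrains FoxO factors. LPS is a component of the outer membrane of Gram-negative bacteria that macrophages sense through TLR4, which drives NF-kB, MAP kinase and interferon programs.

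Total counts ran from 30422715 to 36698363 in the 6 libraries and from 27800983 to 47725557 over all 18. The table held 11243 protein-coding genes, none of them at 0 in any library, and Il6, Nos2 and Ifnb1 were not among them and were not analysed here. Levels are given as CPM, the read counts scaled to library size with TMM factors, in the order of experiments 1, 2 and 3, and depend on transcript length. Of 12 macrophage markers 11 were in the table, and their summed level lay between 14627 and 15995 CPM in the LPS libraries and between 12343 and 13461 CPM in the torin1 libraries. Of 35 markers of other cell types only Cdh5, S100a8 and Zbtb46 were in it, with a summed level of 3.39 to 6.97 CPM with LPS and 2.14 to 5.30 CPM with torin1, and none of them was called. The part of these markers in the results was not tested. In bulk RNA, fewer cells with a transcript and less of it per cell cannot be told apart.

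Torin1 changed 4660 of the 11243 genes, or 41.4%, at a false discovery rate of 0.05 in edgeR's quasi-likelihood test with the experiment as a block and the Benjamini-Hochberg adjustment. Of these 2367 were higher (21.1% of all genes) and 2293 lower (20.4%). A change of at least 1.5-fold was reached by 1342 of the higher genes (11.9% of all) and 873 of the lower genes (7.76%), and a change of at least 2-fold by 549 and 310. In all 3 experiments 7319 of the 11243 genes moved the same way, as did 4649 of the 4660 called genes. The calls were made from these same experiments, so that agreement is not separate support for them. The median log2 fold change over all genes was 0.0047. Scaling by library totals alone moved that median to 0.073 and the calls to 2824 higher and 1801 lower. The number of calls was lowest without experiment 3, at 1694 genes, against 4177 without experiment 1 and 3804 without experiment 2. Without the replicate block 3279 genes were called, and 3278 of them were among the 4660. A called gene below is one past this threshold, and "rose" and "fell" refer to called genes. The adjusted p is from the same edgeR fit, which held the 9 total mRNA libraries, controls included. Its spread is what remains after the experiment and the treatment are fitted. The counts of called genes in each list are to be read against the 21.1% and 20.4% of all genes that were called higher and lower. List counts from another fit are to be read against the calls among all 11243 genes in that fit. These were 948 higher and 746 lower without experiment 3, and 1759 and 1520 without the replicate block. Without experiment 1 they were 2195 and 1982, and without experiment 2, 1970 and 1834. The lists share some members.

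**Figure D1:**
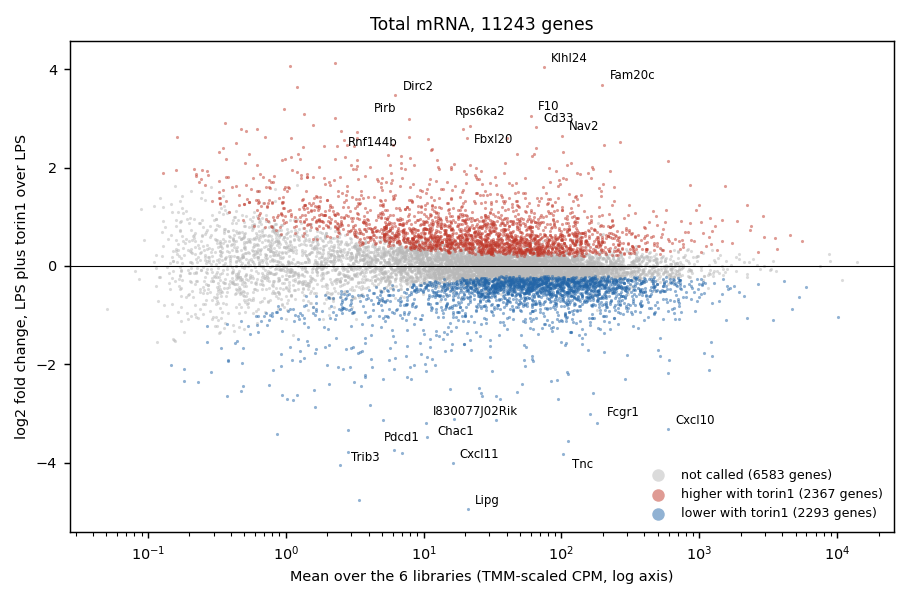
Each point is 1 of the 11243 genes, placed by its mean level over the 6 libraries (TMM-scaled CPM, log axis) and its log2 fold change, LPS plus torin1 over LPS. Red points are the 2367 genes called higher with torin1, blue points the 2293 called lower and grey points the 6583 not called, and genes with large rises or falls that the text describes are named, all with a mean of at least 5 CPM.

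The gene with the largest rise among those with a mean of at least 5 CPM was Klhl24, an adaptor of a cullin ubiquitin ligase. It stood at 16.5, 7.65 and 3.89 CPM with LPS and at 138, 137 and 146 CPM with torin1. The torin1 libraries lay close together and far above all LPS libraries, a log2 fold change of 4.05 (SE 0.37, adjusted p = 0.000131). Fam20c, the Golgi kinase that phosphorylates secreted proteins, went from 21.3, 40.1 and 25.7 CPM to 368, 348 and 389 CPM, a 12.9-fold rise. F10, which encodes coagulation factor X, stood at 21.3, 8.40 and 10.2 CPM with LPS and 142, 73.8 and 104 CPM with torin1. LPS alone had raised F10 over control (log2 fold change 3.83) and torin1 came with a further 3.06. Other genes of the 10 were the lysosomal membrane transporter Dirc2 (3.48), the inhibitory receptors Pirb (2.99) and Cd33 (2.83), the kinase Rps6ka2 (2.85), the ubiquitin ligase subunit Fbxl20 (2.79), Nav2 (2.65) and the ubiquitin ligase Rnf144b (2.63), in log2 fold changes.

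The largest fall belonged to Lipg, the endothelial lipase, which stood at 52.3, 44.3 and 24.7 CPM with LPS and 1.05, 2.08 and 0.801 CPM with torin1. The log2 fold change was -4.95 (SE 0.22, adjusted p = 1.54e-05), against a rise of 8.03 with LPS over control. Tnc, an extracellular matrix glycoprotein, went from 271, 88.3 and 222 CPM to 12.5, 10.6 and 15.1 CPM. The torin1 libraries lay near one level and all below the LPS libraries. The checkpoint receptor PD-1, encoded by Pdcd1, was low, at 11.4, 12.1 and 15.7 CPM with LPS and 0.526, 1.31 and 0.941 CPM with torin1. Fcgr1, the high-affinity IgG receptor and also one of the 11 macrophage markers, fell from 358, 363 and 242 CPM to 23.2, 90.0 and 18.3 CPM. The torin1 library of experiment 2 stood well above those of experiments 1 and 3 and still below every LPS library. Others of the 10 were the interferon-induced chemokines Cxcl11 (-4.01) and Cxcl10 (-3.32), Trib3 (-3.75) and Chac1 (-3.47) of the ATF4 program, and I830077J02Rik (-3.19).

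Most called genes of lysosomes and autophagy rose with torin1. In the lysosome pathway list of the study, 55 genes were higher, 13 lower and 45 not called (48.7% higher and 11.5% lower, against 21.1% and 20.4% of all genes), with a median log2 fold change of 0.29 and experiment medians of 0.27, 0.21 and 0.34. The list holds the genes of the KEGG lysosome pathway as the study used them. Among the enzymes, Ctsd, an aspartic protease of lysosomes, stood at 1765, 1908 and 2026 CPM with LPS and 3020, 3895 and 4754 CPM with torin1, a 2.02-fold rise without overlap of the groups. Acp5, the tartrate-resistant acid phosphatase, went from 2.45, 3.27 and 4.23 CPM to 16.6, 7.76 and 17.3 CPM. Mcoln1, the lysosomal calcium channel, rose from 24.7, 31.8 and 28.7 CPM to 49.1, 53.2 and 54.4 CPM. The list did not move as one, since Ctsc, a cathepsin that activates serine proteases and one of the genes that LPS raised (2.43), fell from 1053, 684 and 566 CPM to 249, 235 and 206 CPM, and Ap1s3, a subunit of a coat adaptor complex, fell as well (-0.76). Without experiment 3, 23 were higher and 4 lower.

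The V-ATPase is the proton pump that acidifies lysosomes. Of its 19 subunit genes 13 rose and 1 fell, with a median of 0.35, and without experiment 3, 2 rose and 0 fell. Atp6v0d2 stood at 3.20, 6.66 and 5.22 CPM with LPS and 11.7, 25.7 and 24.04 CPM with torin1, and within each experiment the torin1 library was at least 3 times the LPS library. Atp6v0a1 rose from 92.6, 124.2 and 121 CPM to 165, 224 and 264 CPM, whereas Atp6v0a2, another form of the same subunit, fell by a smaller amount (-0.32) that was not called without experiment 3. Atp6v0c (0.91) has 2 named pseudogenes, so its value is uncertain.

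Of 44 genes of the autophagy machinery 25 rose and 3 fell (median 0.32), and without experiment 3 the counts were 16 and 1. Tecpr1, which takes part in the fusion of autophagosomes with lysosomes, went from 11.9, 36.3 and 19.1 CPM to 68.8, 126 and 117.3 CPM. The autophagy kinase Ulk1 rose from 6.40, 7.86 and 7.35 CPM to 20.5, 16.1 and 19.6 CPM. Calcoco1 (2.16) and the autophagy receptor Sqstm1 (0.94) rose as well. Wipi1 (1.71) was below 2 CPM in every library. Bnip3, a mitophagy receptor that is also a hypoxia gene, moved the other way, from 54.8, 29.6 and 28.4 CPM to 13.4, 12.7 and 14.8 CPM, while the related Bnip3l rose (1.15).

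The nutrient-sensing arm of mTORC1 and the TFEB family held 43 genes, of which 16 rose and 3 fell (median 0.15). Flcn, a GTPase-activating protein for the Rag GTPases, rose from 46.3, 39.4 and 32.2 CPM to 78.9, 69.0 and 77.8 CPM, and its partner Fnip1 rose too (0.92). Of the transcription factors, Tfeb rose from 2.17, 2.73 and 3.00 CPM to 5.76, 4.30 and 5.37 CPM and Mitf by 0.61, and Tfec (0.38, adjusted p = 0.0554) did not pass the threshold. Tfec was called higher by DESeq2's Wald test (adjusted p = 0.0481), with library totals alone, with only the 2 treatments in the fit and without experiment 1. The inhibitors of mTORC1 that stress induces went the other way. Ddit4 stood at 10.9, 6.12 and 2.72 CPM with LPS and 0.230, 0.235 and 0.209 CPM with torin1, and Sesn2 at 69.2, 46.4 and 20.4 CPM and 7.63, 7.06 and 6.41 CPM, with all torin1 libraries far below the LPS libraries in both genes. Leaving out single experiments gave 12, 9 and 5 higher genes without experiments 1, 2 and 3, the calls of Fnip1 and Mitf were lost without experiment 3, and without the replicate block 10 were higher.

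TFEB and its relatives bind the CLEAR motif, which in its full form holds the letters TCACGTGA. It is shown for the 2 lysosome genes with the largest rise whose window held it, Ctsd (chr7:142387884-142387961, minus strand) and Gla (chrX:134601191-134601255, minus strand), where Gla encodes an enzyme that cleaves glycolipids and rose by 1.22 on the log2 scale. The stretches are from RefSeq promoter windows of GRCm38.p6 that run from 250 bases before to 50 bases after a start site, with the motif in capitals, and Gla holds it at 2 places.
Ctsd: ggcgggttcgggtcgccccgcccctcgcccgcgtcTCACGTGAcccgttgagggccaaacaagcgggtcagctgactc
Gla: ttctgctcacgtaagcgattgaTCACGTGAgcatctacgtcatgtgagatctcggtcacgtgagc
Windows were found for 9009 of the 11243 genes, 441 of them through an older symbol, and 203 of the 9009 genes, or 2.25%, held TCACGTGA on either strand. Among genes with a window it was in 72 of 1896 that rose (3.80%) and in 23 of 1857 that fell (1.24%). Of the 43 nutrient-sensing genes 37 had a window and 0 of these held the motif. For the lysosome, V-ATPase and autophagy lists less than 80% of the genes had a window, so no share is given for them. A match of letters is not a binding site.

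**Figure D2:**
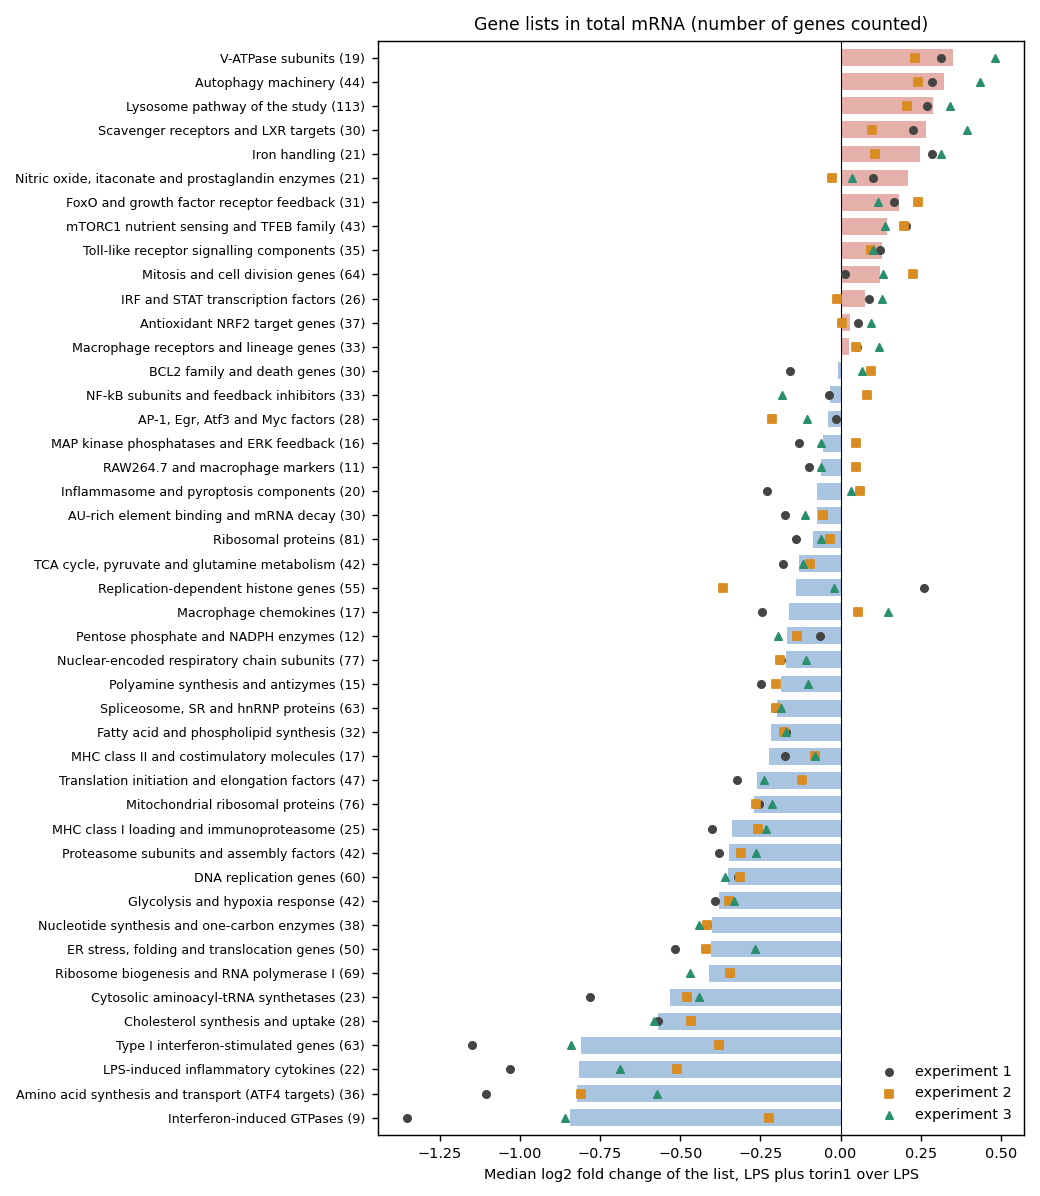
Bars show the median log2 fold change, LPS plus torin1 over LPS, of 45 gene lists in total mRNA, with the number of genes counted in parentheses, and circles, squares and triangles show the median within experiments 1, 2 and 3. The V-ATPase, autophagy and lysosome lists are at the top, and the interferon-induced GTPases and the ATF4 list at the bottom. In both interferon lists the experiments lie far apart, with experiment 1 lowest and experiment 2 nearest to 0.

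FoxO target genes and growth factor feedback genes moved both ways, with 13 of 31 higher, 7 lower and a median of 0.18. Phlpp1, a phosphatase that acts on AKT, rose from 11.7, 13.8 and 7.50 CPM to 44.0, 45.4 and 34.6 CPM. Ccng2, a cyclin that FoxO factors induce, rose from 32.3, 20.3 and 15.1 CPM to 43.6, 55.5 and 41.7 CPM, and S1pr1 (1.84) and Pink1 (1.16) rose from low levels. Tnfsf10, which encodes the death ligand TRAIL, fell from 7.68, 15.2 and 6.64 CPM to 1.68, 3.63 and 1.67 CPM. Sesn1 (0.051, adjusted p = 0.818) and Pik3ip1 (0.18, adjusted p = 0.801) were not called. Without experiment 3, 8 were higher and 4 lower, and Ccng2 was not called.

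Most genes that ATF4 drives for amino acid synthesis and transport fell. ATF4 is a transcription factor that the integrated stress response and mTORC1 both raise. Of 36 genes 26 fell and 3 rose, with a median of -0.82 and experiment medians of -1.10, -0.81 and -0.57. Atf4 mRNA itself stood at 817, 573 and 373 CPM with LPS and 359, 338 and 243 CPM with torin1, each torin1 library below every LPS library. Chac1, which degrades glutathione, went from 29.3, 21.8 and 6.82 CPM to 2.30, 2.66 and 0.418 CPM, and the pseudokinase Trib3 from 17.03, 13.6 and 3.74 CPM to 0.428, 1.58 and 0.418 CPM. In both genes the LPS libraries differed several-fold among the experiments, with experiment 3 the lowest, and the torin1 libraries lay below all of them.

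Of the amino acid transporters, Slc7a5, a carrier of leucine, fell from 173, 213 and 193 CPM to 76.6, 72.3 and 71.0 CPM. Slc3a2, the partner chain of Slc7a5, changed by -0.28 with overlapping groups, and it was not called without the replicate block (adjusted p = 0.19), with library totals alone or when any 1 of the experiments was left out. The cystine transporter Slc7a11 stood at 1447, 618 and 754 CPM and 1001, 486 and 1034 CPM, with overlapping groups (-0.15, SE 0.23, adjusted p = 0.636). Enzymes of serine synthesis fell, with Phgdh at -0.68 and Psat1 at -0.97. Asns, which makes asparagine, fell from 339.9, 212 and 141 CPM to 107.4, 105.5 and 103 CPM. The 3 members that rose were Sqstm1, Cebpb (0.91) and Atf3 (0.90), which other pathways also induce, and Cebpb and Atf3 were not called without experiment 3, nor Atf3 without the replicate block (adjusted p = 0.163).

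Genes of tRNA charging and of one-carbon metabolism fell as well. Of 23 cytosolic aminoacyl-tRNA synthetases 20 fell and 0 rose (median -0.53), with Nars, which charges asparagine tRNA, at 740.3, 503 and 406 CPM with LPS and 249, 259 and 244 CPM with torin1. Cars (-1.15) and Yars (-1.03) followed. Of 38 genes of nucleotide synthesis and one-carbon metabolism 27 fell and 0 rose (median -0.40), or 11 without experiment 3. The mitochondrial folate enzyme Mthfd2 fell from 292, 213 and 146 CPM to 77.7, 89.6 and 75.5 CPM and Shmt2 from 233, 329 and 245 CPM to 139.7, 140.1 and 152 CPM, with no overlap. Tyms, which makes thymidylate, fell by 0.94 on the log2 scale.

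ATF4 binds C/EBP-ATF response elements, searched here as the letters TGATGNAA on both strands. The stretches of Chac1 (chr2:119351014-119351091, plus strand) and Trib3 (chr2:152344011-152344081, minus strand), the members with the largest falls whose window held the motif, carry it in capitals on the reverse strand.
Chac1: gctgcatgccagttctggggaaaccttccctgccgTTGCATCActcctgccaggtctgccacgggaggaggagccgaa
Trib3: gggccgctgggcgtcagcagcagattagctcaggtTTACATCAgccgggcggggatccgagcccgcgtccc
It was in 10 of the 31 ATF4-list genes with a window (32.3%), against 254 of 9009 of all genes (2.82%) and 3.97% of all 32851 windows of the table. Of the list genes with a window it was in 6 of 22 that fell, 1 of 3 that rose and 3 of 6 not called.

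Genes of cholesterol synthesis fell for the most part. SREBP2 is the transcription factor that drives it, and mTORC1 is known to raise SREBP activity. Of 28 genes 18 fell and 1 rose, with a median of -0.57 and experiment medians of -0.57, -0.47 and -0.58. Acat2, which joins acetyl groups at the start of the pathway, stood at 24.9, 22.3 and 17.1 CPM with LPS and 11.2, 8.07 and 5.89 CPM with torin1, all torin1 libraries below all LPS libraries. Acat2 (-1.38), Cyp51 (-1.09) and Idi1 (-1.09) had the largest falls, and Insig1 (-0.74) and Sqle (-0.55) fell within each experiment but were not called without the replicate block (adjusted p = 0.0875 and 0.0523). Hmgcs1, another SREBP2 target, was not called (-0.21, adjusted p = 0.322), and neither were Srebf2 (-0.28) and Srebf1 (0.40) themselves. Srebf2 was called lower without experiment 1 (-0.55), and Srebf1 higher without experiment 2 (0.68). Mvd rose by 0.57, a call lost without experiment 3. Without that experiment 12 genes of the list were lower.

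Of 32 genes of fatty acid and phospholipid synthesis 14 fell and 6 rose (median -0.22). The desaturases Scd2 (473, 412 and 365 CPM with LPS, 296, 212 and 166 CPM with torin1) and Scd1 (-0.73) and the elongase Elovl6 (-1.14) fell, and Fasn (-0.51, adjusted p = 0.0575) did not pass the threshold. Fasn was called lower by DESeq2's Wald test (adjusted p = 0.00904), with DESeq2 size factors in edgeR and without experiment 1. Lpin1, a phosphatidate phosphatase that mTORC1 is known to phosphorylate, rose from 2.70, 2.76 and 1.42 CPM to 6.81, 9.71 and 6.59 CPM. Pcyt1a, of phosphatidylcholine synthesis, rose by 0.89. The counts were 2 higher and 8 lower without the replicate block and 2 and 6 without experiment 3, and 9 were lower without experiment 2. The sterol element, searched as TCACNCCAC, was in 2 of 26 genes with a window (7.69%), against 1.42% of the 9009 genes. It was in 2 of 5 that rose, 0 of 9 that fell and 0 of 12 not called. For the cholesterol list less than 80% of the genes had a window.

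Glycolysis and hypoxia genes fell for the most part, 25 of 42 against 5 that rose (median -0.38). HIF1 is the factor that drives them in LPS-activated macrophages. Hif1a fell from 294, 241 and 219.5 CPM to 185, 178 and 172 CPM. The hexokinase Hk2 stood at 288, 327 and 326 CPM with LPS and 178, 187 and 175 CPM with torin1, and Ldha at 1517, 1554 and 1592 CPM and 853, 990.0 and 949 CPM, without overlap in either gene. The glucose transporter Slc2a1 changed little (-0.30, adjusted p = 0.0474) and was not called without the replicate block or with library totals alone, or without experiment 2 or 3. The secreted factor Vegfa fell from 15.1, 13.5 and 6.70 CPM to 2.93, 3.06 and 3.52 CPM. The members that rose included another hexokinase, Hk3 (1.52), as well as Ndrg1 (1.92) and Narf (1.63), so the list did not move as one. Its hypoxia element, searched as TACGTGC, was in 6 of 40 genes with a window (15%), against 1.19% of the 9009 genes. Of the list genes with a window it was in 3 of the 25 that fell, 0 of 4 that rose and 3 of 11 not called.

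The pentose phosphate list had 1 gene lower of 12, Rpe (-0.60), and 0 higher. Of 42 genes of the TCA cycle and of pyruvate and glutamine use 10 fell (23.8%, near the 20.4% of all genes) and 3 rose (7.14%, against 21.1%), with a median of -0.13. Without experiment 3, 3 were lower and 1 higher. Pdk1, which holds back pyruvate dehydrogenase, fell by 0.99 on the log2 scale, and its opponent, the phosphatase Pdp1, rose from 8.21, 11.2 and 6.76 CPM to 14.4, 20.6 and 15.8 CPM. The glutamine carrier Slc1a5 fell as well (-0.77). Of 77 respiratory chain subunits 21 were lower (27.3%, against 20.4% of all genes) and 1 higher, with small changes (median -0.17). Without experiment 3, 3 were lower, without experiment 1, 13, and without the replicate block 13. Without experiment 1 or 3 the lower share did not exceed that of all 11243 genes, of which 1982 and 746 were lower. Of 76 mitochondrial ribosomal proteins 34 fell and 0 rose (median -0.27), led by Mrps6 (-0.79), Mrpl30 (-0.66) and Mrpl42 (-0.64), with 9 lower without experiment 3 and 22 without experiment 2. For the TCA list, 3 were lower and 1 higher without experiment 3.

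Most chaperone and translocation genes of the endoplasmic reticulum (ER) fell. Of 50 genes 32 fell and 3 rose (median -0.40, experiment medians -0.52, -0.42 and -0.27). Hspa5, the main ER chaperone BiP, stood at 3589, 3032 and 2358 CPM with LPS and 1452, 1411 and 1412 CPM with torin1, and the torin1 libraries were within a few percent of each other. Herpud1, of ER-associated degradation, fell from 343, 231 and 217 CPM to 119.6, 94.4 and 109 CPM and Hyou1 from 842, 828 and 879 CPM to 460.4, 452 and 502 CPM. The sensor kinase Eif2ak3 rose slightly (0.45), a call lost without experiment 3, and Ppp1r15a, a regulator of eIF2 phosphatase, rose by 0.54, a call lost without experiment 2 or the replicate block (adjusted p = 0.162).

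The ER stress response element is CCAAT followed by 9 bases and CCACG. It is shown in capitals in the genes with the largest falls that held it, Hspa5 (chr2:34771990-34772078, plus strand) and Creld2 (chr15:88819485-88819573, plus strand, log2 fold change -0.80), the latter on the reverse strand.
Hspa5: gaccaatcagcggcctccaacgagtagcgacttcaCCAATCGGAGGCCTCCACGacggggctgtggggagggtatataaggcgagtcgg
Creld2: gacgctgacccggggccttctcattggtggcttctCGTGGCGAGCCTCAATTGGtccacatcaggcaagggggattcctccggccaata
Of 42 genes of the list with a window 9 held it (21.4%), against 14 of 9009 genes (0.155%) and 0.119% of all windows. Among the list genes with a window it was in 7 of the 24 that fell, 0 of 3 that rose and 2 of 15 not called.

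Of 42 proteasome genes 28 were lower and 1 higher (median -0.35), with the regulatory subunit gene Psmd12 at -0.59 and Psma4 at -0.53. Without experiment 3, 4 were lower, and Psma4 was not among them. The exception was Psmb6, a catalytic subunit of the standard proteasome, which rose from 325, 359.9 and 274 CPM to 454, 517 and 446 CPM and has 2 named pseudogenes.

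Genes of ribosome production fell for the most part, and most ribosomal protein genes were not called. Of 69 genes of ribosome biogenesis and RNA polymerase I 50 fell and 1 rose (median -0.41), and without experiment 3, 15 fell. Dkc1, the pseudouridine synthase, fell from 235, 185 and 220.3 CPM to 142, 105.5 and 118.1 CPM and Nop58, of the small nucleolar RNA complexes, from 404, 279 and 295 CPM to 220.1, 160.2 and 188 CPM. Noc4l had the largest fall (-0.84). Myc, a factor that drives these genes, fell from 23.4, 35.1 and 43.8 CPM to 23.4, 22.3 and 19.3 CPM, with overlapping groups and equal levels in experiment 1, and lost its call without experiment 2 or 3 or with library totals alone. Of the list 61 genes had a promoter window and 12 of them held the E-box CACGTG (19.7%), against 12% of the 9009 genes, and all 12 were among the 44 that fell.

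Of 81 ribosomal protein genes 6 fell and 0 rose, with a median of -0.087 and no change of 1.5-fold, and the lowest was Rps27l (-0.44). Counts of ribosomal protein genes are uncertain because of their pseudogenes, 15 named for Rpl21 and 6 for Rpl35a. In polysome-associated mRNA of the same lysates the median was -0.67 and 48 of the 81 were lower, against 10.3% of all genes lower in that RNA type. The difference between the RNA types was not tested here. Without the replicate block 1 gene of the list was lower in total mRNA, as without experiment 3, and without experiment 2, 2 were higher and 5 lower. Of 47 translation factors 24 fell, among them the cap-binding Eif4e (278, 231 and 204 CPM with LPS, 167, 154 and 139 CPM with torin1) and Eif2s2 (-0.70), and 3 rose, Eef2 (0.57), Eif3f (0.44) and Eif4b (0.31), of which Eef2 lost its call without experiment 1 or 3 and Eif4b without any 1 of the experiments. The 24 lower translation factors were 51.1% of the list, against 20.4% of all genes. Without the replicate block 14 of the translation factors were lower, and without experiment 3, 3. The latter share was near that of all genes, of which 746 of 11243 were lower.

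Among cell cycle genes, most called replication genes fell and most called mitosis genes rose. LPS alone had lowered both groups, 53 of 60 replication genes and 59 of 64 mitosis genes, against 28.4% of all genes that were lower with LPS than in control and 26.3% that were higher. The LPS comparison depends on the scaling, and with library totals alone 1490 genes were higher and 6198 lower with LPS, against 2962 and 3190. With torin1, 35 replication genes fell (58.3%, against 20.4% of all genes) and 1 rose (median -0.35). Of the mitosis genes 20 rose (31.2%, against 21.1% of all genes) and 3 fell (median 0.12). Among the first, Ccnd1, the cyclin of entry into the cell cycle, went from 128, 438 and 276 CPM to 70.0, 228 and 118.3 CPM. It fell within each experiment, but the experiments differed so much that the groups overlapped and the call was lost without the replicate block (adjusted p = 0.115) and without experiment 3. E2f7, a repressor of E2F targets, was the 1 gene that rose (1.00). Among the second, the phosphatase Cdc25b rose from 36.1, 44.7 and 46.5 CPM to 64.9, 81.3 and 73.6 CPM and the kinetochore gene Ndc80 from 32.7, 25.5 and 29.5 CPM to 43.9, 47.7 and 55.2 CPM. Mki67, a marker of cycling cells, was not called (0.06, SE 0.09, adjusted p = 0.627). Without experiment 3, 9 replication genes were lower, and without the replicate block 23. Mitosis genes called higher were 5 of 64 without experiment 3, 11 without experiment 2 and 11 without the replicate block. Over all 11243 genes 948, 1970 and 1759 were higher in these fits. The mitosis share was then near that of all genes. Of 55 histone genes 2 rose and 1 fell, and their experiment medians were 0.26, -0.37 and -0.021, with 6 higher without experiment 2.

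**Figure D3:**
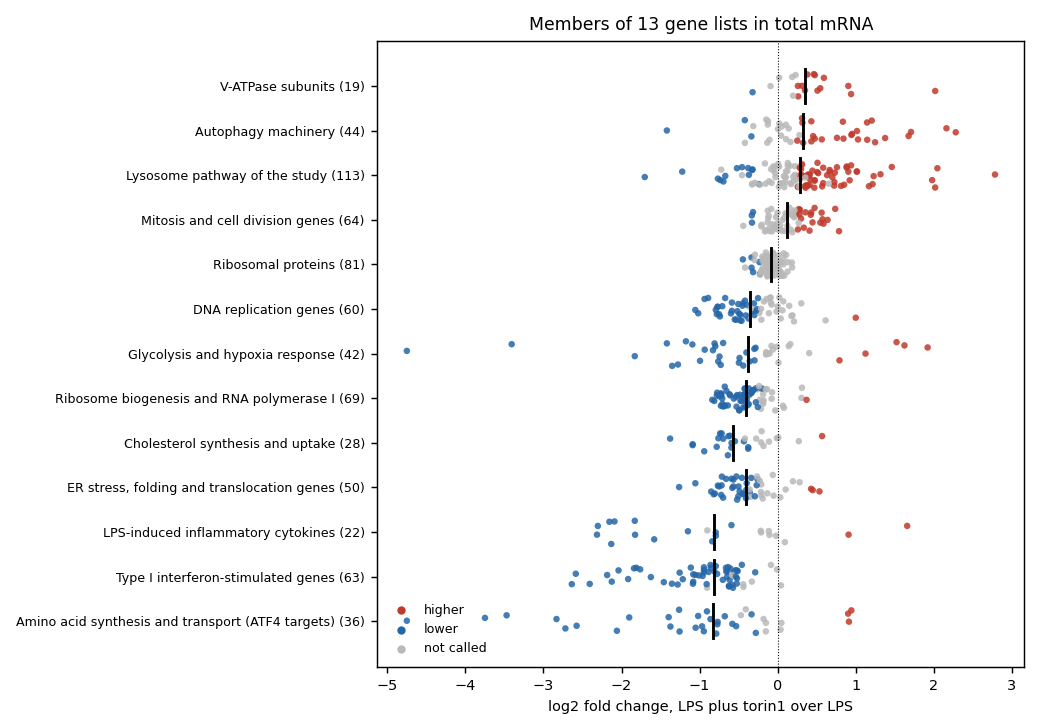
Each point is a gene of 1 of 13 lists, placed by its log2 fold change, LPS plus torin1 over LPS, and coloured red where it was called higher, blue where lower and grey where not called, with a black bar at the median of the list and the number of genes in parentheses. Ribosomal proteins lie near 0, nearly all ribosome biogenesis and cholesterol genes lie to the left, and the ATF4, glycolysis and cytokine lists have single members far to the left and a few to the right.

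Cytokines that LPS induces fell unevenly. Of 34 listed genes 22 were in the table, and 13 of these fell and 2 rose (median -0.81, experiment medians -1.03, -0.51 and -0.69). Il10, the anti-inflammatory cytokine, stood at 2.55, 0.840 and 0.907 CPM in control, 103, 26.3 and 29.5 CPM with LPS and 14.1, 9.68 and 7.07 CPM with torin1. The torin1 libraries were below all LPS libraries and above all control libraries. Il1b went from 2933, 1155 and 1680 CPM to 501, 659.9 and 470.3 CPM, with the LPS library of experiment 1 the highest and experiment 2 showing the smallest fall, and was not called without experiment 3. Il1a (-2.30), the interleukin 6 family cytokine Lif (-2.31), Il27 (-2.15) and Il18 (-1.58) fell as well.

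Tnf, the tumor necrosis factor, stood at 1917, 2707 and 2529 CPM with LPS and 1840, 2347 and 1972 CPM with torin1. Each torin1 library was slightly below its LPS library, and the change was not called (-0.22, SE 0.16, adjusted p = 0.32). Csf3, a growth factor of neutrophils, was not called either (-0.21, SE 0.25, adjusted p = 0.537). The 2 that rose were Tnfsf9, which encodes the 4-1BB ligand, from 46.1, 53.1 and 42.1 CPM to 114, 169 and 163 CPM, and Hbegf (0.91), whose groups overlapped and whose call was lost without experiment 2 or 3 or the replicate block (adjusted p = 0.0786).

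**Figure D4:**
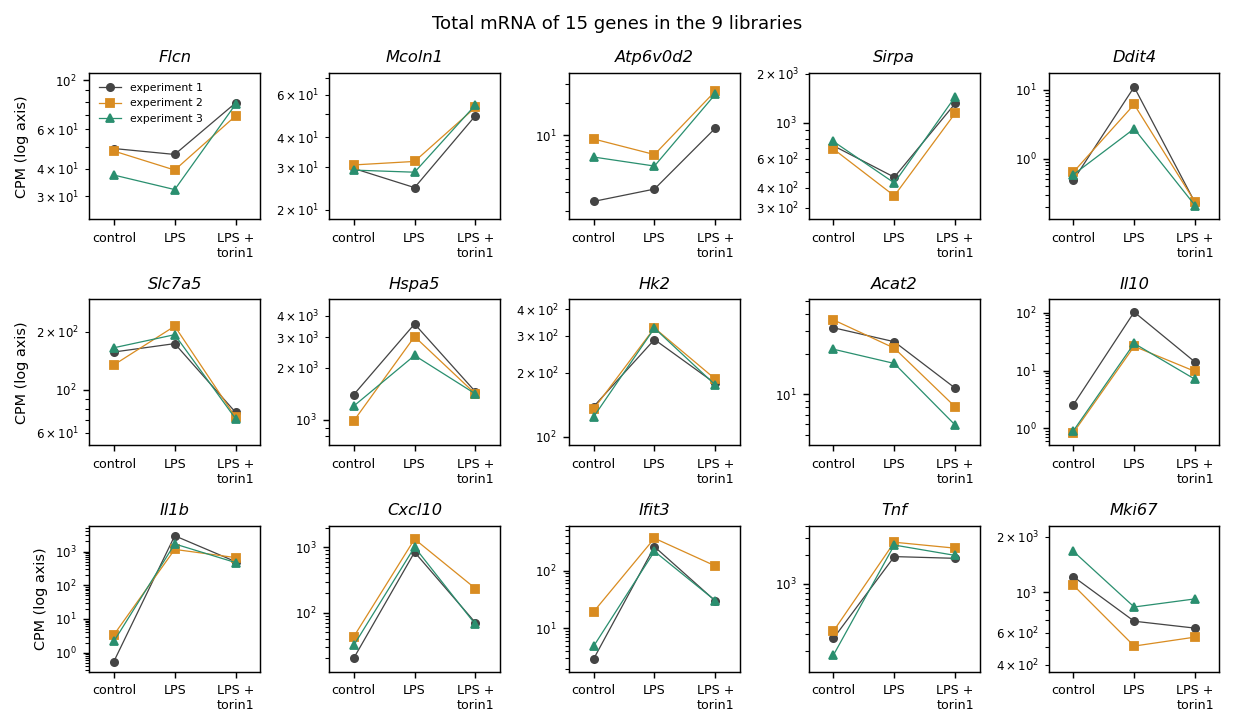
Levels of 15 genes in total mRNA (CPM, log axis) in control, LPS and LPS plus torin1 libraries, with a line joining the libraries of each experiment. Flcn, Mcoln1, Atp6v0d2 and Sirpa rise from LPS to torin1 in each experiment, Ddit4 to Ifit3 fall in each, Tnf and Mki67 stay close, and in Cxcl10 and Ifit3 the torin1 library of experiment 2 lies above the others.

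Of 28 listed chemokines and chemokine receptors 17 were in the table, of which 6 rose (35.3%) and 5 fell (29.4%). Their median changed sign without experiment 1 (0.10), while 3 were higher and 3 lower without experiment 3. Cxcl10, which attracts T cells and is induced by interferon, went from 846, 1344 and 1014 CPM to 70.2, 235 and 66.1 CPM, with the torin1 library of experiment 2 above the others, and Cxcl11 from 32.7, 38.8 and 19.9 CPM to 1.18, 3.33 and 1.39 CPM. The receptor Ccr1 fell from 108, 63.7 and 51.3 CPM to 25.4, 27.7 and 28.2 CPM and Ccl6 rose from 19.4, 13.7 and 8.49 CPM to 33.1, 48.5 and 30.2 CPM. Ccrl2, a chemerin receptor without known signalling, rose by 0.97. Cxcr4 rose (3.20) at the limit of counting, with 1 count in its lowest library, and Ccrl2 and Cxcr4 were not called without experiment 3, nor Ccrl2 without the replicate block (adjusted p = 0.101) or in DESeq2.

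Most type I interferon-stimulated genes fell, by amounts that varied between the experiments. Of 63 genes 54 fell and 0 rose (median -0.81), with experiment medians of -1.15, -0.38 and -0.84. Ifit3, an antiviral effector, stood at 2.92, 19.3 and 4.86 CPM in control, 261, 366 and 216 CPM with LPS and 29.8, 121 and 30.2 CPM with torin1. The control and torin1 libraries of experiment 2 stood above those of experiments 1 and 3, and no torin1 library reached an LPS library. Mx1 went from 89.8, 110.2 and 51.9 CPM to 9.97, 39.8 and 8.75 CPM, again with the torin1 library of experiment 2 the highest of the 3. Mx1 encodes a GTPase that blocks viruses. Without the replicate block 20 of the 63 were called lower, and without experiments 1, 2 and 3 it was 42, 60 and 21, with medians of -0.61, -1.09 and -0.81.

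The stretches that follow hold the letters AAANNGAAA, the core of the element that IRF and STAT complexes bind, in capitals. They are from Ifit3 (chr19:34583338-34583416, plus strand), where the match is on the reverse strand, and Igtp (chr11:58199488-58199566, plus strand), among the members with the largest falls of their lists.
Ifit3: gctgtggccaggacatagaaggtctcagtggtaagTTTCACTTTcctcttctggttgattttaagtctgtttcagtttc
Igtp: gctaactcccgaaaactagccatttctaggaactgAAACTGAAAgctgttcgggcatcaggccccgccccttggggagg
The stretch of the neighbouring Ifit3b was letter for letter that of Ifit3, and reads of the 2 paralogs may not be separable. The motif was in 8 of the 8 interferon-induced GTPase genes with a window and in 871 of 9009 genes (9.67%) and 10.6% of all windows. Of those 8 genes 4 fell and 4 were not called. For the interferon-stimulated list less than 80% of the genes had a window.

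Of 18 listed interferon-induced GTPases 9 were in the table, of which 5 fell and 0 rose. Igtp (-1.59) and Irgm2 (-1.34) overlap in the annotation on the same strand, and Irgm2 was not called without experiment 3. Without experiment 3, 1 of them was lower, without the replicate block 3 were, and without experiment 1, 2 were higher and 5 lower. Of 25 genes of MHC class I loading and the immunoproteasome 13 fell and 0 rose (median -0.34), with the peptide transporter Tap1 at 203, 369 and 249 CPM with LPS and 113.2, 234 and 121 CPM with torin1, a fall in each experiment that was not called without the replicate block (adjusted p = 0.0869). Of this list 5 were lower without the block and 6 without experiment 3.

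IRF and STAT factors and their receptors moved both ways, with 8 of 26 higher (30.8%, against 21.1% of all genes), 7 lower (26.9%, against 20.4%) and a median of 0.077. Without experiment 3, 3 were higher and 1 lower. Stat2, which carries the interferon signal, fell from 243, 274 and 268 CPM to 102, 202 and 108 CPM and was not called without experiment 3. Irf7, which amplifies type I interferon, went from 699, 1019 and 548 CPM to 332, 697 and 249 CPM, with overlapping groups, and was not called without the replicate block (adjusted p = 0.176) or without experiment 3. Stat3, which acts below interleukin 10 and interleukin 6, fell from 328, 288 and 229.9 CPM to 189.7, 183 and 151 CPM, and its feedback inhibitor Socs3 from 995, 888 and 838 CPM to 482, 475 and 347 CPM. Irf4 (1.43) and Il10rb (1.03) rose.

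Feedback genes of the MAP kinase and NF-kB pathways moved both ways, as all genes together did. Dusp2 and Dusp5, nuclear phosphatases of MAP kinases, fell from 78.7, 55.0 and 53.4 CPM to 14.3, 9.51 and 5.96 CPM and from 156, 198 and 194 CPM to 41.9, 44.6 and 33.9 CPM. Errfi1, an inhibitor of the EGF receptor, fell from 179, 134 and 181 CPM to 22.2, 32.4 and 22.2 CPM. In all these genes the LPS and torin1 libraries lay far apart. Dusp4 (0.70) and Dusp3 (0.74) rose, and 5 of 16 genes rose and 5 fell (31.2% each, against 21.1% and 20.4% of all genes). Without experiment 3, 1 rose and 3 fell, with 3 higher without experiment 2 and 2 higher and 3 lower without the replicate block, and Dusp4 was not called without experiment 3 or without the replicate block (adjusted p = 0.107).

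Of 33 NF-kB genes 7 rose (21.2%) and 9 fell (27.3%), near the 21.1% and 20.4% of all genes. Their median was -0.034, of opposite sign with library totals alone and without experiment 3. Nfkbiz, a nuclear cofactor of NF-kB, fell from 688, 581 and 439 CPM to 272, 322 and 232 CPM, and Relb (0.73) and Rela (0.71) rose. Of 35 Toll-like receptor genes 10 rose (28.6%) and 9 fell (25.7%). Tlr13, which senses bacterial ribosomal RNA, rose from 80.0, 80.5 and 43.0 CPM to 259, 242 and 232 CPM. Tlr9, which senses DNA, fell from 7.96, 7.44 and 10.7 CPM to 3.42, 3.13 and 3.07 CPM, and Tlr3 fell too (-1.26). Of 28 AP-1, Egr, Atf3 and Myc family genes 6 rose (21.4%) and 10 fell (35.7%), with Egr2 up from 11.5, 9.27 and 14.0 CPM to 62.0, 75.9 and 67.6 CPM and the Myc antagonist Mxd1 down from 223, 166 and 97.1 CPM to 51.0, 77.4 and 35.99 CPM. Without experiment 3 the higher and lower counts were 3 and 4 for NF-kB genes, 3 and 6 for Toll-like receptor genes and 1 and 7 for the AP-1 group, and without the replicate block 6 Toll-like receptor genes were higher and 5 NF-kB genes lower.

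Enzymes of nitric oxide, itaconate and prostaglandin synthesis counted 7 higher and 7 lower of 21 (33.3% each, against 21.1% and 20.4% of all genes). Ptgs2, the inducible cyclooxygenase, went from 7310, 5653 and 5412 CPM to 3204, 3452 and 3285 CPM and was not called without experiment 1, while Ptges, which makes prostaglandin E2, rose from 16.3, 23.7 and 19.8 CPM to 36.5, 28.8 and 43.2 CPM and was not called without experiment 3. Arg2, the mitochondrial arginase, rose from 12.9, 6.24 and 6.24 CPM to 29.3, 29.9 and 33.7 CPM, and Ass1, which recycles citrulline to arginine, fell from 18.7, 17.1 and 14.3 CPM to 2.43, 7.13 and 2.75 CPM. Without experiment 3 the list counted 2 higher and 4 lower, and without the replicate block 4 lower.

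Surface receptors of macrophages moved both ways, with 10 of 33 higher and 10 lower (30.3% each, against 21.1% and 20.4% of all genes). Sirpa, the receptor for the "do not eat me" signal CD47, rose from 463, 356 and 427 CPM to 1315, 1146 and 1448 CPM, and the inhibitory IgG receptor Fcgr2b from 84.9, 87.8 and 108 CPM to 218, 296 and 404 CPM. Gpnmb, a glycoprotein that MITF family factors induce, went from 254, 1401 and 802 CPM to 984, 2683 and 3033 CPM. It rose in each experiment, but the LPS library of experiment 2 lay above the torin1 library of experiment 1, and the call was lost without the replicate block (adjusted p = 0.123). Serpinb2 fell from 575, 191 and 114 CPM to 39.6, 36.5 and 17.1 CPM, with Serpinb10 overlapping it in the annotation. The receptor for CSF1, Csf1r, fell from 1121, 1360 and 1370 CPM to 864, 937 and 839 CPM and was not called without experiment 3, and without it 5 of the receptors were higher and 6 lower, and without the replicate block 6 were higher. Of the 11 macrophage markers 3 rose (Adgre1 0.59, Cd68 0.39 and Ptprc 0.35) and 3 fell (Fcgr1 -3.19, Csf1r -0.54 and Lyz2 -0.42). Without experiment 3, 0 of these markers were called higher and 1 lower, which was Fcgr1, and Lyz2 was not called without experiment 1 either. Without experiment 2, as without the replicate block, 1 was higher, since Adgre1 and Ptprc lost their calls.

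Among scavenger receptors and targets of the sterol-sensing LXR factors 11 of 30 rose and 7 fell (median 0.27). The mannose receptor Mrc1 fell from 5.86, 5.10 and 7.53 CPM to 0.724, 1.24 and 2.23 CPM and Cd36, a fatty acid and lipoprotein receptor, fell too (-0.74), while Rxra, the partner of LXR, rose from 10.4, 11.6 and 8.55 CPM to 29.3, 27.5 and 23.8 CPM. The lipid droplet gene Hilpda rose by 1.01. In iron handling 9 of 21 rose and 3 fell. The iron exporter Slc40a1 rose from 1.03, 1.56 and 1.14 CPM to 4.44, 5.24 and 4.91 CPM, and the transferrin receptor Tfrc, which takes iron up, fell from 1018, 882 and 994 CPM to 484, 453 and 571 CPM. The mitochondrial iron importer Slc25a37 rose by 1.23. Without experiment 3, 6 scavenger and LXR genes were higher and 2 lower, and 3 iron genes were higher and 2 lower, and without the replicate block 4 iron genes were higher. Without experiment 1, 5 iron genes were lower.

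Of 28 listed MHC class II and costimulatory genes 17 were in the table. H2-Aa, H2-Eb1, H2-Oa, H2-Ob and Ciita were not in it, so the list says little on MHC class II itself. Of the 17 genes 4 rose (23.5%) and 6 fell (35.3%), with Cd40 down from 337, 293 and 269 CPM to 131.4, 177 and 114 CPM and Cd80 from 21.6, 11.9 and 20.2 CPM to 5.76, 6.15 and 8.26 CPM. The ligand of PD-1, Cd274, was not called (-0.035, SE 0.24, adjusted p = 0.924), at 146, 149 and 123.1 CPM and 95.1, 191 and 145 CPM. It was lower with torin1 in experiment 1 and higher in experiments 2 and 3. Of 20 inflammasome genes 5 rose (25%), among them Nlrc4 (1.21) and Nek7 (0.85), and 5 fell (25%), among them Il1b and Il18. Of 30 BCL2 family and death genes 6 rose (20%), with Mcl1 at 0.71, and 8 fell (26.7%), with the necroptosis effector Mlkl at -1.12. The shares of both lists lie near the 21.1% and 20.4% of all genes. Cd40 was not called without experiment 3, which left 1 higher and 2 lower of the costimulatory genes, 3 and 2 of the inflammasome genes and 2 and 3 of the death genes. Without the replicate block 3 inflammasome genes and 5 death genes were lower.

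Of 63 spliceosome, SR and hnRNP genes 22 fell (34.9%, against 20.4% of all genes) and 1 rose (median -0.20), with Hnrnpc at -0.62. The kinase Clk1 was up by 0.57, a call with overlapping groups that was lost without experiment 3. Without that experiment 3 of the list fell, a share below that of all genes, of which 746 of 11243 fell. Of 30 genes of AU-rich element binding and decay 4 rose (13.3%) and 6 fell (20%). Zfp36, which binds these elements in cytokine mRNAs, went from 533, 546 and 352 CPM to 369, 317 and 173 CPM, with overlapping groups and no call without the replicate block (adjusted p = 0.14) or experiment 3, and the related Zfp36l2 rose from 27.1, 35.9 and 28.1 CPM to 50.7, 69.7 and 63.4 CPM. Without experiment 3, 1 of these genes rose and 1 fell. Of 15 polyamine genes 5 fell, with spermidine synthase, Srm, from 115, 148 and 156 CPM to 78.0, 70.9 and 65.4 CPM, and 0 rose. Of 37 NRF2 targets 9 rose (24.3%) and 7 fell (18.9%), near the 21.1% and 20.4% of all genes. Their median of 0.029 changed sign without experiment 3 (-0.059), where 2 rose and 1 fell. Without the replicate block 4 rose and 3 fell, and without experiment 2, 4 fell.

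Polysome-associated mRNA, taken from the same lysates, gave 1391 genes higher with torin1 (12.4%) and 1161 lower (10.3%), or 2552 in all. The number called was 205 without experiment 3, 920 without experiment 1 and 4251 without experiment 2, and 1557 without the replicate block. Of the 4660 genes called in total mRNA 2357 were called in the same direction there and 0 in the opposite one, and 4635 had a fold change of the same sign. The libraries share lysates, so they are not independent. Side by side, in total and polysome-associated mRNA, the log2 fold changes were 4.05 and 4.23 for Klhl24, -4.95 and -4.67 for Lipg, -2.13 and -2.27 for Il10 and -1.05 and -0.96 for Hspa5. Cox7a2l, a respiratory chain assembly factor, rose in total mRNA (0.70) and had 0.044 in polysome-associated mRNA, and the difference was not tested.

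The comparison of LPS with control shares the LPS libraries, and its values are set side by side only. The list medians in total mRNA were 3.30 with LPS and -0.81 with torin1 for cytokines, 2.44 and -0.81 for interferon-stimulated genes, 0.66 and -0.82 for ATF4 genes, 0.38 and -0.40 for ER genes, 0.063 and -0.57 for cholesterol genes, and 0.058 and 0.29 for lysosome genes. With library totals alone the median of all genes moved to -0.390 in the LPS comparison, so its small medians depend on the scaling. Exons of several named genes overlap an annotated gene on the other strand, among them Sqstm1, Cxcl10, Tnc, Il1b, Il1a, Atp6v0a2, Stat3, Irf7, Csf1r, Ndrg1 and Tap1, and whether the counting used strand is not given in the sources used here, so reads of such pairs cannot be told apart.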

How the data were processed

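Polysome-associated and total RNA were sequenced from RAW264.7 cells in 3 independent experiments. The authors prepared stranded, ribosomal RNA-depleted libraries, ran a nextflow RNA-seq pipeline with Hisat2 on GRCm38 and counted reads with featureCounts on Ensembl genes, and the deposited counts are unnormalized whole numbers. Per the study's methods, only protein-coding genes were kept and genes with 0 counts in any sample were discarded. Here the 9 total mRNA libraries were fitted in one model with edgeR 4.0.16 (TMM, quasi-likelihood test, Benjamini-Hochberg adjustment at 0.05, R 4.3.3) with the experiment number as a block. The number was taken to pair the samples. Deviations of the 9 same-experiment pairs in total mRNA correlated at 0.127 to 0.540, and those of pairs from different experiments at -0.369 to 0.121. The polysome libraries were fitted apart, in the same way, although their same-experiment pairs correlated at -0.141 to 0.843 and 3 of 9 were below 0. The study tested with anota2seq at a false discovery rate of 0.25, tried here as an alternative beside DESeq2 1.42.0, other scalings, filters, no block and each experiment left out. The genes and lists were chosen with earlier results of these data known. Named were the 10 largest rises and 10 largest falls among called genes with a mean of at least 5 CPM that moved alike in 3 experiments, up to 3 rising and 3 falling called members with the largest change per list, and a set of genes of mTOR, metabolic and inflammatory pathways. Ctsd, Gla and Creld2 were named for the promoter sequences printed, up to 2 called members per list with the largest change whose window held the motif. Windows on chromosome 18, where for example Nars lies, were left out of that choice. The fit was tested on simulated counts. Replicates differed by more than sampling noise. Some genes named by these rules are not reported here.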

Additional observations from a re-analysis of the deposited data

Results flagged for a closer look

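In 2 lists the mean of the 3 experiment medians had opposite signs in total and polysome-associated mRNA, and so did the median of every experiment. For Toll-like receptor signalling components it was 0.106 in total and -0.023 in polysome-associated mRNA, on the log2 scale, LPS plus torin1 over LPS. For macrophage receptors and lineage genes it was 0.073 and -0.12. The medians of the fitted fold changes were 0.13 in total and 0.068 in polysome-associated mRNA for the first list, which have the same sign, and 0.028 and -0.037 for the second. The difference was not tested. Of all 11243 genes 81 had opposite signs in the 2 RNA types in every experiment, and 0 of the named genes did.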

How the results depend on the processing

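The number of genes called in total mRNA was 7196 at a false discovery rate of 0.25, and it ran from 1694 to 4177 with each experiment left out, the lowest without experiment 3. In the same comparison 3279 genes were called without the replicate block, 4504 by DESeq2 and 4625 with library totals alone, where 61.1% of the calls were higher against 50.8%. In polysome-associated mRNA the number was 1557 without the replicate block, 5587 at 0.25 and 5647 with only the 2 treatments in the fit, and it ran from 205 to 4251 with each experiment left out, against 2552. The cause was not tested. Of the 247 named genes that were called, 203 were also called without the replicate block and 44 only with it. Over 10 alternatives 36 of 46 lists kept the sign of their median and 10 did not. Among named genes, those that changed sign were not called. Cd274 had a log2 fold change of 0.048 without the replicate block and 0.038 with library totals alone, and from -0.208 to 0.298 with each experiment left out. Slc7a11 ran from -0.450 to 0.074 and Sesn1 from -0.029 to 0.097 with each experiment left out. Depth did not limit most named genes, but Cxcr4 had 1 count in its lowest library.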
